A study of Mus musculus with 8 samples.

Results

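Plasma cells and macrophages of mouse bone marrow were set side by side by their transcripts, each library singly. The comparison used the 2 plasma cell libraries and the 2 libraries of macrophages from naive mice, 4 of the 8 libraries of the series. Genes were joined by symbol, immunoglobulin heavy and light chain genes were dropped, and the counts of each library were rescaled to CPM (counts per 1000000) over the 46451 remaining shared genes. Both groups are labelled as wild type, strain B6, untreated, and ages, sexes and numbers of animals are not given in the labels. The macrophages are labelled as bone marrow macrophages of naive mice, and the series text gives the sort gate, F4/80 high and CD11b low, for tumour-associated macrophages. The series text names both Vk*MYC myeloma cells (GFP high, CD138 high) and polyclonal plasma cells of naive mice (GFP negative, CD138 high, B220 low), where Vk*MYC names a mouse model of multiple myeloma. Both plasma cell libraries are labelled only as plasma cells, so which of these populations each one holds is not given in the labels. A growth note shared by all samples describes GFP-positive Vk*MYC cells injected into the tibia of wild-type mice.

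Plasma cells are the end stage of the B cell lineage. They secrete antibody in bulk, and for this they hold an expanded endoplasmic reticulum (ER) built under the transcription factor XBP1, whose messenger RNA is spliced by the sensor IRE1 when unfolded protein accumulates. They persist in the marrow next to cells that supply survival ligands such as BAFF and APRIL. Resident marrow macrophages engulf expelled red cell nuclei and aged red cells and return the iron to the blood. They depend on the receptor CSF1R and on transcription factors such as PU.1 and SPIC.

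The 4 libraries held 28887725 to 81792139 counts. Immunoglobulin genes took 67.4% and 70.5% of the counts in plasma cell replicates 1 and 2, and 0.469% and 0.637% in naive macrophage replicates 1 and 2. Between 11277739 and 46331332 counts per library were left for the comparison, so that 3 counts, the most that a count of 0 allows, correspond to 0.0648 to 0.266 CPM. Jchain alone took 17.9% and 26.9% of what was left in the plasma cell libraries. In each of the sentences that follow, pairs of values are replicate 1 and then replicate 2, in CPM unless another unit is given. Where the cell types are not named, the values before "against" are of plasma cells in the paragraphs on plasma cell genes and of naive macrophages in those on macrophage genes.

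A gene was counted as higher in one cell type where its lower library there had at least 4 times the CPM of the higher library of the other type, with fewer than 3 counts on the lower side raised to 3. Between the cell types, genes said to be within or under 4-fold, or not to pass or reach it, did not meet this rule. Some of them were more than 4-fold apart by their means, as Hspa5 and Pf4 were. Of 12181 genes with at least 1 CPM in at least 2 of the 4 libraries, 567 (4.65%) were higher in plasma cells and 1883 (15.5%) were higher in naive macrophages. Plasma cells thus had 23.1% of the calls on the CPM scale and 35.4% with RLE size factors, 768 against 1401 genes. The median gene had a log2 difference (plasma cells minus naive macrophages, on log2(CPM + 0.5)) of -0.54, which moved up by 0.45 with RLE size factors, and list medians below are best read against it. The 36 gene lists held 556 genes, each counted once, of which 551 were shared by the tables and 528 passed the filter. Counts of list members below are to be read against the 4.65% and 15.5% of all genes. No test was made, because cell type and count table coincide, and with 2 against 2 libraries an exact two-sided permutation test cannot go below 0.333. Fewer cells of a type and less RNA per cell cannot be told apart in such bulk samples.

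Other properties also went with cell type. The Y-linked Ddx3y was at 71.6 and 53.2 in plasma cells and 0.237 and 0.14 in macrophages, while Xist, transcribed from the inactive X chromosome, was at 0.602 and 1.06 in plasma cells and 54.4 and 37.9 in macrophages. Sex therefore coincides with cell type in these 4 libraries. Nnt, which encodes the mitochondrial nicotinamide nucleotide transhydrogenase, was at 0.94 and 0.798 in plasma cells and 166 and 176 in naive macrophages, and at 80.3 to 103 CPM in the 4 macrophage libraries of tumour-bearing mice. As background, C57BL/6J mice carry a deletion in Nnt that C57BL/6N mice lack, and the labels name the strain only as B6. Substrain was not tested.

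**Figure D1:**
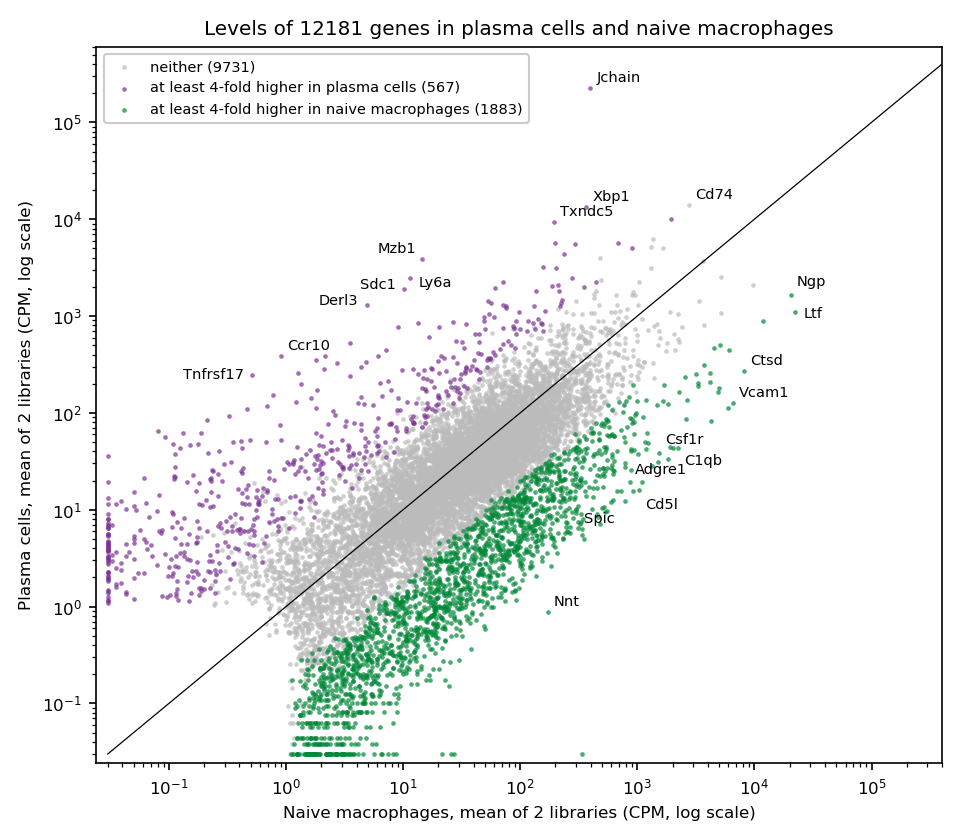
Mean CPM of the 2 plasma cell libraries against the mean of the 2 naive macrophage libraries for the 12181 genes tested, both on log scales; the line marks equal levels, colours mark the 567 and 1883 genes at least 4-fold apart in every library pair, and means under 0.03 CPM are drawn at 0.03. Jchain stood apart at the top, and Nnt stood apart at the lower right.

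The defining markers separated the cell types in every library. Positions are gene spans of GENCODE M21 on GRCm38. Jchain, the joining chain of polymeric IgA and IgM (chr5:88519809-88527891), was at 179137 and 269335 in plasma cells and 339 and 456 in naive macrophages. Xbp1 (chr11:5520659-5525893) was at 11953 and 14552 against 336 and 394. Sdc1 (chr12:8771323-8793715), which encodes the sort antigen CD138, was at 2812 and 983 against 9.6 and 10.9. Tnfrsf17 (chr16:11313812-11320074), which encodes the BAFF and APRIL receptor BCMA, was at 179 and 315 against 0.324 and 0.702. The plasma cell libraries of all these genes lay above both macrophage libraries, by a smallest ratio of 30.3 for Xbp1 to 393 for Jchain.

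Adgre1 (chr17:57358691-57483527), which encodes the macrophage antigen F4/80, was at 1147 and 595 in the macrophages against 14.6 and 23.9 in plasma cells. Cd5l (chr3:87357881-87371073), a secreted scavenger protein of tissue macrophages, was at 1452 and 623 against 12.9 and 18.9. Naive replicate 1 had the higher level of both genes, and replicate 2 still exceeded the higher plasma cell library by 24.9 and 33 times. For these 6 markers the 4 libraries matched their labels, while neutrophil genes summed to more than macrophage surface receptors in both naive macrophage libraries, as given below. Ptprc, which encodes the leukocyte antigen CD45, was at 339 and 185 in plasma cells and 998 and 1087 in macrophages. Itgam, which encodes the CD11b of the sort gate, was at 61.5 and 58.9 in plasma cells and 248 and 336 in macrophages, just past the 4-fold limit with a smallest ratio of 4.03.

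Each cell type held a low level of the other's markers. Jchain, Mzb1, Sdc1 and Tnfrsf17 in the macrophage libraries were at 0.131% to 0.575% of their plasma cell mean. The other 3 plasma cell markers were higher there, Xbp1 at 2.54% to 2.97%, Irf4 at 4.91% to 6.03% and Prdm1 at 6.75% to 17.7%. Adgre1, Cd5l, Csf1r, C1qa, C1qb, C1qc and Mertk in the plasma cell libraries were at 1.25% to 2.82% of their macrophage mean. This band groups 7 of the 9 macrophage markers by their values. Cd68 (11.2% and 6.42%) and Spi1 (16.5% and 18.8%) were above that band. None of the 9 macrophage markers and none of the 7 plasma cell markers was at 0 counts in any of the 4 libraries. The part that cells of the other type have in these levels was not tested.

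**Figure D2:**
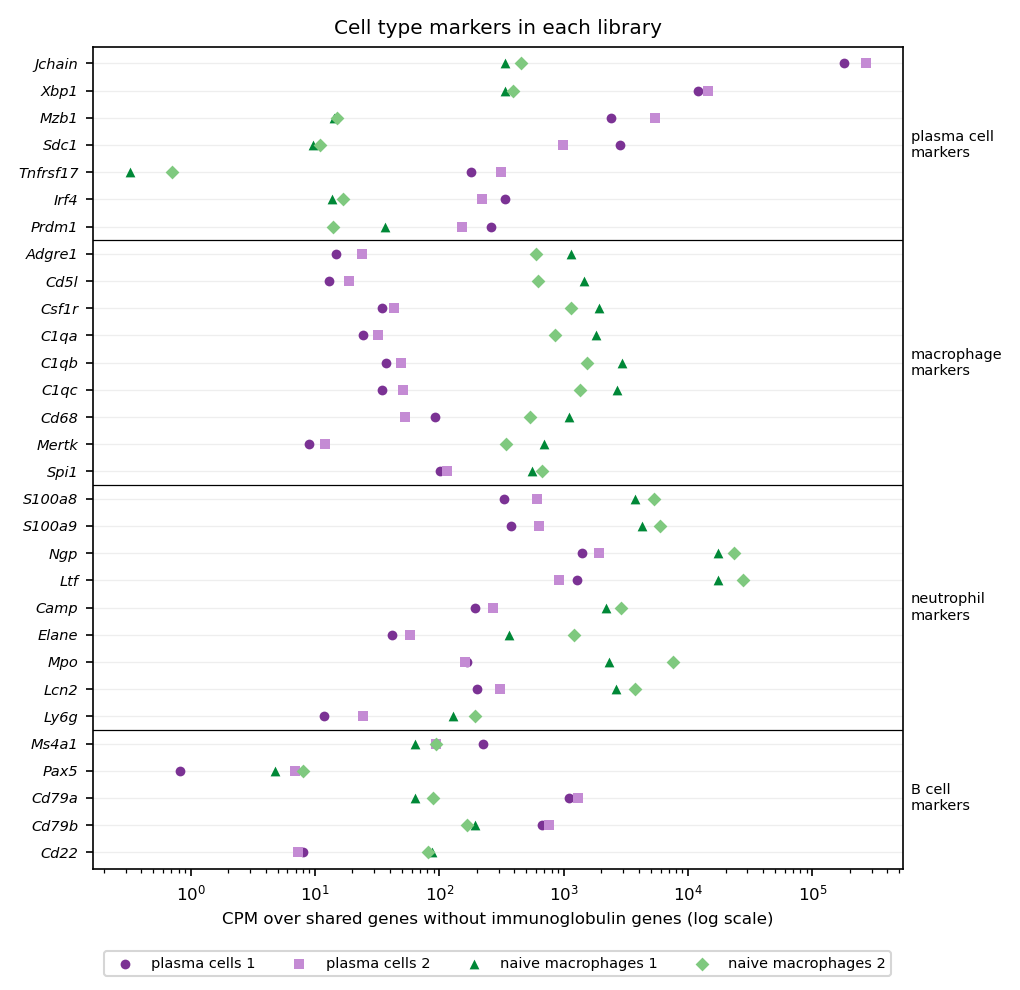
CPM (log scale) of marker genes of plasma cells, macrophages, neutrophils and B cells; each point is 1 library, 2 per cell type. Plasma cell and macrophage markers did not overlap between the cell types, and neutrophil markers were higher in both naive macrophage libraries.

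The transcription factors of the plasma cell stage were nearly all higher in plasma cells. Of 10 tested, 8 were at least 4-fold higher in plasma cells (4.65% of all genes were) and 0 in macrophages, with a median log2 difference of 3.96. Bhlha15, which encodes MIST1, a factor of secretory cells, was at 389 and 274 against 3 and 6.6. Irf4, which drives plasma cell differentiation, was at 335 and 219.8 against 13.6 and 16.7. Prdm1, which encodes BLIMP1, a repressor of the B cell programme, was at 261 and 152 against 36.5 and 13.9. Prdm1 had the lowest smallest ratio of the 8, 4.15, set by naive replicate 1. Pou2af1, a coactivator of immunoglobulin promoters, was at 1745 and 1087 against 44.1 and 61.3. Ell2, an elongation factor that favours the secreted form of heavy chain mRNA, was at 705 and 584 against 44.9 and 43.5. By the 4-fold rule itself, none of these 5 genes overlapped between the cell types. Zbtb20 (198 and 99.4 against 55.4 and 44.6) and Atf6 (232 and 135 against 62.2 and 53.3) were the members within 4-fold.

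Surface proteins were called mostly on the plasma cell side. Of 21 tested, 9 were higher in plasma cells, where 4.65% of all genes were. Only 2 were higher in macrophages, a count below the 15.5% of all genes, and 10 were neither. The median was 2.34. Slamf7, a receptor targeted in myeloma, was at 772 and 759 against 20.7 and 19.9. Epcam, an adhesion molecule, was at 362 and 229 against 4.23 and 4.56. Ly6d, a B lineage surface protein, was at 1000.2 and 661 against 26.7 and 41.5. Replicate 1 was the higher plasma cell library for Epcam and Ly6d, and Slamf7 was nearly equal in both. Itgb7, the integrin chain that pairs with alpha 4 in homing to mucosa, was at 481 and 634 against 58.1 and 99.7. The members higher in macrophages were Cd38, an ectoenzyme (377 and 217 against 31.2 and 50.4), and Cd27, a TNF receptor family member (11 and 12.4 against 2.14 and 1.51). Both are used as plasma cell antigens in human marrow.

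The antibody assembly list, chaperones that build the IgM and IgA polymers among them, had 9 of 13 tested members higher in plasma cells and a median of 2.99. Mzb1, a chaperone of B lineage cells for IgM, was at 2406 and 5382 against 14.2 and 14.9. Txndc5, a disulfide isomerase of the ER, was at 12019 and 6734 against 182 and 204. Pdia4, another isomerase, was at 4199.6 and 4569 against 194 and 279. Mzb1 was higher in plasma cell replicate 2 and Txndc5 in replicate 1, and all 3 met the 4-fold rule. Hsp90b1, the ER chaperone GRP94, was at 4416 and 7030.3 against 610.4 and 752. Hspa5, the chaperone BiP, was at 5195 and 7413 against 1214 and 1522, higher in both plasma cell libraries without reaching 4-fold. Among 26 ER folding genes, of which 11 are also in the assembly list, 14 were higher in plasma cells and 0 in macrophages. Creld2, an ER stress-inducible folding factor, was at 1329.8 and 3197 against 59.7 and 81.8. Manf, a secreted ER-stress protein, was at 488 and 2087 against 62.2 and 81.5. Both were higher in plasma cell replicate 2. Prdx4, an ER peroxidase, was at 629 and 1126 against 34 and 19.6. Fkbp11, a prolyl isomerase of secretory tissue, was at 90.7 and 388 against 2.2 and 4.88. Canx, the lectin chaperone calnexin, was at 544 and 485 against 605 and 529.9, and the ranges of the cell types overlapped.

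Some promoters of secretory genes carry the ER stress response element, a site bound by ATF6 and XBP1 with NF-Y. It reads CCAAT, a gap of 9 bases, and CCACG. RefSeq promoter windows of GRCm38.p6, from 250 bases before to 50 bases after the gene start, were searched on both strands. The element was in 10 of 107 genes of the antibody assembly, folding, translocation, glycosylation, degradation and transport lists (9.35%; 127 were listed, and 107 had a window), against 37 of all 27025 genes (0.137%) and 13 of 9486 genes tested (0.137%). It was in 0 of 51 genes of the macrophage transcription factor, surface, secreted protein and Fc receptor lists. The lists were chosen by function, so these shares describe them and are not a test. Among all genes with a window, 5 of 418 genes higher in plasma cells held it (1.20%) and 1 of 1379 genes higher in macrophages did (0.0725%). The secretory list genes with it were Calr, Canx, Creld2, Derl3, Dnajc3, Ero1b, Hsp90b1, Hspa5, Pdia6 and Syvn1. Of these, Creld2, Derl3, Dnajc3, Hsp90b1 and Syvn1 were at least 4-fold higher in plasma cells. Calr, Canx, Hspa5 and Pdia6 did not meet the 4-fold rule, and Ero1b was not among the shared symbols. The elements of the first 5 are shown because these genes hold the element and passed 4-fold. The lines below give the gene strand 5′ to 3′, and capitals mark the element, which reads CGTGG first where it lies on the other strand.
Creld2, plus strand, chr15:88819490-88819568: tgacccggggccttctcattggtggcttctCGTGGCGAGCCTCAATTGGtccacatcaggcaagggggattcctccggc
Derl3, plus strand, chr10:75893212-75893290: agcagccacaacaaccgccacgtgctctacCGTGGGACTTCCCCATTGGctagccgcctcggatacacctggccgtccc
Dnajc3, plus strand, chr14:118937797-118937875: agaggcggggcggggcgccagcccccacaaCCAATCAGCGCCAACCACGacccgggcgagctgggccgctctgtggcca
Hsp90b1, minus strand, chr10:86705608-86705686: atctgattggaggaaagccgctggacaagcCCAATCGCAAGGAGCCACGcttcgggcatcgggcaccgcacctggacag
Syvn1, plus strand, chr19:6046502-6046575: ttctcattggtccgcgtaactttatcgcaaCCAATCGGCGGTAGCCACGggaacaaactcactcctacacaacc

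All of these stretches end before the gene start of their RefSeq window. Derl3, an ER degradation factor, was at 939 and 1642 in plasma cells against 3.86 and 5.93 in macrophages. Syvn1, the ubiquitin ligase HRD1, was at 889.7 and 595 against 133 and 132. Dnajc3, a co-chaperone of BiP, was at 1328 and 1582 against 220.2 and 230.0. A match is a description of letters, and binding was not measured here. The shorter site TGACGTGG, bound by XBP1 and ATF6, was in 9 of 107 secretory genes (8.41%), in 0.714% of all genes and in 0 of the 51 macrophage genes. It can overlap the CCACG end of the longer element. Of its 9 holders, Txndc5, Txndc11, Kdelr3 and Ube2j1 were at least 4-fold higher in plasma cells, and Copb1, Copb2, Sec23a, Sec24d and Vcp were within 4-fold.

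On the macrophage side, GAGGAAGT, a site bound by PU.1, was in 7 of the 51 genes with a window of the 69 listed (13.7%), in 3.69% of all genes and in 1 of 107 secretory genes (0.935%). Among the genes tested 4.13% held it. The holders were C1qc, Fcgr4, Fcrlb, Pf4, Pira2, Pirb and Selenop. Of these, Fcrlb and Pf4 did not meet the 4-fold rule, Pf4 at 18.5 and 8.91 in macrophages against 0.639 and 2.31 in plasma cells. The stretches of Pira2 and Pirb are nearly identical around the site, so these genes are not separate instances of it. Among all genes with a window, 95 of 1379 genes higher in macrophages held it (6.89%) and 15 of 418 genes higher in plasma cells did (3.59%). The stretches of C1qc and Pirb, an inhibitory receptor of myeloid cells, are shown with the site in capitals, as examples before the gene start; in C1qc the capitals are its reverse complement.
C1qc, minus strand, chr4:136893072-136893139: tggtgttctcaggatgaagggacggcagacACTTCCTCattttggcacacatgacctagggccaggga
Pirb, minus strand, chr7:3720465-3720532: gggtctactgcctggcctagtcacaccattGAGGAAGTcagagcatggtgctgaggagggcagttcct

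C1qc, a chain of the complement component C1q, was at 2671 and 1346 in macrophages and 34.9 and 51.3 in plasma cells, and Pirb was at 424 and 487 against 17.1 and 16.2.

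Genes of the route by which a nascent chain enters the ER came next. Of 24 ER translocation genes, 9 were higher in plasma cells (4.65% of all genes were) and 0 in macrophages, with a median of 2.20. Ssr4, a subunit of the translocon-associated complex, was at 685 and 1262 against 45.6 and 51.6. Sec11c, a catalytic subunit of the signal peptidase, was at 1159.9 and 2427 against 121 and 153. Spcs2, its partner, was at 1516 and 2111 against 199 and 226. Replicate 2 was the higher plasma cell library for all 3. Sec61a1, the channel itself, was at 1666 and 1199 against 279 and 316 and did not reach 4-fold. Tram2, a translocon protein, was at 185 and 224 against 8.35 and 4.46, whereas its relative Tram1 was at 1591 and 1501 against 422 and 439.

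N-glycosylation genes had a lower median. Of 25 tested, 4 were higher in plasma cells, where 4.65% of all genes were, and 0 in macrophages. The median was 1.49, or -0.20 with immunoglobulin genes kept in the library totals. Ddost and Krtcap2, subunits of the oligosaccharyltransferase, were at 1623 and 2324 against 323 and 377 and at 212 and 569.7 against 19.6 and 22.6. Rpn1 (1740.1 and 1892 against 382 and 503) and Rpn2 (1345 and 1278 against 456 and 481), of the same complex, did not meet the 4-fold rule. ER to Golgi transport had 8 of 30 tested genes higher in plasma cells, 0 in macrophages and a median of 1.30, or -0.38 with immunoglobulin genes kept. Kdelr3, a receptor that returns ER residents, was at 43.2 and 56.7 against 0.173 and 0.526. Lman1, a cargo lectin, was at 823 and 1031 against 133 and 153. Surf4, a cargo receptor, was at 1174 and 967 against 389.8 and 408, under 4-fold.

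ER-associated degradation, which removes misfolded chains, had 10 of 16 genes higher in plasma cells and 0 in macrophages, with a median of 2.71. Edem1 and Edem2, mannosidases that mark chains for removal, were at 5787 and 5248 against 263 and 321 and at 3155 and 3314 against 139.7 and 171. Herpud1, a scaffold of the HRD1 complex, was at 3719.8 and 2597 against 204 and 203. Sel1l, its adaptor, was at 3177 and 1053 against 221 and 199.8. All these genes met the 4-fold rule, while the sensors of the unfolded protein response did not. Ern1, which encodes IRE1, was at 75.6 and 35.3 against 28.3 and 23.2. Eif2ak3, which encodes PERK, was at 179 and 60.2 against 69.5 and 73.9, with plasma cell replicate 1 alone above the macrophages. Ddit3, the stress-induced factor CHOP, was at 14.8 and 14.5 against 10.8 and 15.9, with overlapping ranges. In all, 4 of 15 genes of the response list passed, Xbp1, Herpud1, Asns and Chac1.

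Amino acid synthesis and uptake supply the secreted chains. Of 14 tested, 4 were higher in plasma cells (4.65% of all genes were) and 1 was higher in macrophages, with a median of 2.02. Pycr1, an enzyme of proline synthesis, was at 525 and 369 against 5.29 and 8.98. Asns, asparagine synthetase, was at 319 and 230.4 against 25.8 and 48.2. Phgdh, which starts serine synthesis, was at 236 and 135 against 17.6 and 33.3. Replicate 1 was the higher plasma cell library for all 3. Slc3a2, the heavy chain of amino acid transporters, was at 5670.2 and 2280.4 against 594 and 369, with a smallest ratio of 3.84 that missed the limit. Slc7a11, a cystine transporter, was the member higher in macrophages, at 13.7 and 16.3 against 1.54 and 2.39. For oxidative phosphorylation 1 of 20 genes was higher in plasma cells, near the 4.65% of all genes, and 0 in macrophages. The median was 0.69, or -0.94 with immunoglobulin genes kept. Glycolysis had 3 of 17 genes higher in macrophages and 0 in plasma cells, with a median of -1.21. That count is near the 15.5% of all genes that were higher in macrophages. The 3 genes were Hk3, a hexokinase of myeloid cells (635 and 941 against 36.2 and 18.9), Slc2a3, a glucose transporter (384 and 566 against 30.5 and 22.1), and Gpi1, glucose phosphate isomerase (544 and 855 against 123 and 136).

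Counts of genes with many near-identical copies in the genome are uncertain. Gapdh, a glycolytic enzyme with many such copies, was at 3.16 and 0.532 in plasma cells and 7.4 and 11.3 in macrophages. Of 32 ribosomal protein genes listed, 26 passed the filter, and the stalk protein Rplp0 was at 264 and 435 against 105 and 126. No direction is given for these genes. The median of the 14 housekeeping genes was -0.34, or 0.11 with RLE size factors. Actb, cytoplasmic actin, was at 1567 and 1310.1 in plasma cells and 3735 and 2952 in macrophages.

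**Figure D3:**
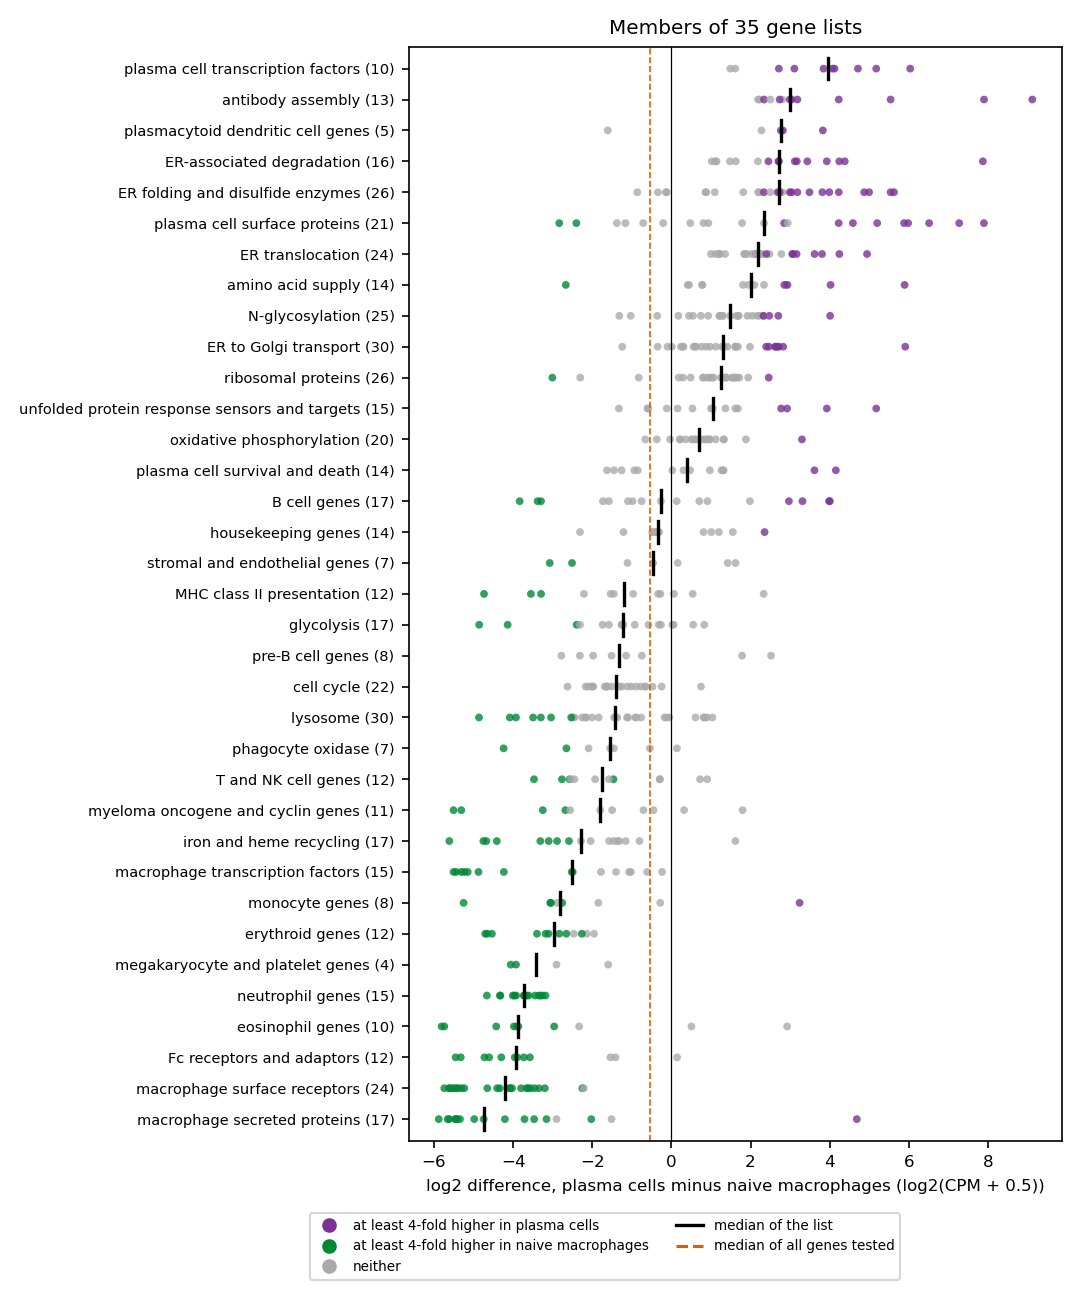
log2 difference (plasma cells minus naive macrophages) of each tested member of 35 gene lists, 1 point per gene, purple or green where at least 4-fold higher in plasma cells or macrophages, with the number tested in parentheses, the median of each list as a bar and the median of all genes as a dashed line. Folding, translocation and degradation lists lay to the right and macrophage, neutrophil, Fc receptor and erythroid lists to the left; the glycosylation and transport medians turn negative with immunoglobulin genes kept.

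B cell genes lay on both sides. Of 17 genes tested, 4 were higher in plasma cells, where 4.65% of all genes were. Another 3 were higher in macrophages, a count near the 15.5% of all genes. The median was -0.27, or 0.15 with RLE size factors. Cd79a, a signalling chain of the B cell receptor, was at 1102 and 1297 against 63.5 and 88.5. Fcrla, a B lineage ER protein, was at 458 and 278 against 17.9 and 26.3. Cd37, a tetraspanin, was at 152 and 218 against 14.2 and 22.5. Tnfrsf13c, the BAFF receptor, was at 332 and 204 against 24.6 and 43.5. These 4 genes lay above both macrophage libraries in both plasma cell libraries, as the 4-fold rule requires. Pax5, the factor of B cell identity that plasma cells silence, was at 0.827 and 6.92 against 4.79 and 8.03. Cd22, an inhibitory receptor of B cells, was at 87.6 and 80.8 in macrophages against 7.97 and 7.27. Bcl6, a germinal centre repressor, was at 58.2 and 72.4 in macrophages against 3.27 and 5.05. Ciita, the MHC class II activator, was at 30.7 and 31 in macrophages against 2.63 and 2.75. These 3 genes lay below both macrophage libraries in both plasma cell libraries, again as the rule requires. The 17 genes summed to 3107 and 3051 CPM in plasma cells and 754 and 919 CPM in macrophages, with 0 of them at 0 counts in any library. The part of B cells in these values was not tested.

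MHC class II genes also lay on both sides. Cd74, the invariant chain, was at 17892 and 10029 in plasma cells and 3387 and 2092 in macrophages, above both macrophage libraries with a smallest ratio of 2.96. H2-Ab1, a class II beta chain, was at 623 and 1025 against 992 and 589, with overlapping ranges. H2-Aa, its alpha chain, was at 119.6 and 176 against 553 and 322, higher in macrophages under 4-fold. The costimulatory ligands Cd80 and Cd86 were higher in macrophages and are given with the ligands below.

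Survival genes were mostly within 4-fold, 2 of 14 being higher in plasma cells, where 4.65% of all genes were, and 0 in macrophages. Pim1 (98.9 and 58.5 against 4.23 and 3.4) and Pim2 (183 and 175 against 10.9 and 18.3), kinases that support survival, were these 2. Mcl1, which plasma cells need to live, was at 1133 and 791 against 695 and 668. Bcl2, a related survival protein, was at 85.3 and 39 against 20.4 and 27.5. Among 11 tested oncogene and cyclin genes of myeloma, 0 passed in plasma cells and 4 in macrophages, where 4.65% and 15.5% of all genes did. Myc, the mouse counterpart of the human gene carried by Vk*MYC mice, was at 93.8 and 132 in plasma cells and 157 and 211 in macrophages. Ccnd2, a cyclin used by plasma cells, was at 395 and 569.7 against 149 and 124. Ccnd1, another cyclin, was at 0.639 and 1.06 against 11.4 and 5.68. Maf, a myeloma oncogene and a macrophage factor alike, was higher in macrophages and is given next.

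Macrophage transcription factors had 9 of 15 tested genes higher in macrophages and 0 in plasma cells, with a median of -2.52, where 15.5% of all genes were higher in macrophages. Spic, the factor of red pulp and marrow macrophages that recycle iron, was at 836 and 345 against 10.9 and 12.9. Maf was at 134 and 62.5 against 1.17 and 1.95. Nr1h3, the sterol sensor LXR alpha, was at 164 and 83.6 against 2.22 and 3.55. Naive replicate 1 was the higher library for all 3. Pparg, a lipid sensor, was at 233 and 159 against 3.76 and 5.67. Cebpa, a myeloid factor, was at 65.1 and 59.4 against 1.77 and 1.51. Spi1, which encodes PU.1, was at 557 and 668 against 101 and 115, with a smallest ratio of 4.84. Irf8 (609 and 518 against 217 and 123) and Cebpb (159.7 and 171 against 107 and 109) did not pass.

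Surface receptors of macrophages had 23 of 24 tested genes higher in macrophages and a median of -4.22. Vcam1, an adhesion ligand for integrin alpha 4, was at 8737 and 4394 against 108 and 146. Csf1r, the receptor for M-CSF, was at 1911 and 1135 against 34.7 and 43. Mrc1, the mannose receptor, was at 1886 and 1095 against 26.5 and 35. Cd163, the haemoglobin scavenger receptor, was at 1271 and 575 against 13.6 and 17.6. All of these were higher in naive replicate 1. Mertk, which binds apoptotic cells through GAS6, was at 690.1 and 345 against 9.03 and 12.1. The exception was Tlr2, a receptor for bacterial lipopeptides, at 207 and 139.8 against 50.6 and 26. Levels of naive replicate 1 exceeded those of replicate 2 for 22 of these 24 genes, and the list summed to 22558 and 12219 CPM in macrophages and 714 and 629 CPM in plasma cells.

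Secreted proteins followed, with 14 of 17 tested genes higher in macrophages, 1 higher in plasma cells and a median of -4.75. C1qa and C1qb were at 1807 and 850.0 against 24.3 and 32.1 and at 2927 and 1541 against 37.5 and 49.1. Apoe, a lipid carrier, was at 6288 and 3674 against 149 and 214. Igf1, a growth factor, was at 413 and 211 against 5.19 and 7.89. The one gene on the other side was Slpi, a secreted protease inhibitor, at 8259 and 3013 in plasma cells against 159 and 235. Lyz2, lysozyme of macrophages and neutrophils, was at 9533 and 13947 against 734 and 1051, with naive replicate 2 the higher, unlike Apoe or C1qa.

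Iron and haem recycling had 8 of 17 tested genes higher in macrophages and 0 in plasma cells, with a median of -2.29. Slc40a1, the iron exporter ferroportin, was at 8137 and 3681 against 96.2 and 129. Hmox1, haem oxygenase, was at 3925 and 1252 against 101 and 73.6. Fth1, the ferritin heavy chain, was at 3254 and 1585 against 657 and 884 and did not pass. Lysosomal genes had 7 of 30 higher in macrophages, where 15.5% of all genes were, and a median of -1.43. Ctsd, a lysosomal protease, was at 10457 and 5876 against 279 and 259, while Ctss, a protease of antigen presentation, was at 2523 and 786 in plasma cells against 1209 and 705, with overlapping ranges. Ctsb (12614 and 6648 against 2575 and 1614) and Psap (6705 and 3608 against 1428 and 739) were higher in both macrophage libraries without meeting the 4-fold rule.

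Fc receptors and adaptors had 9 of 12 genes higher in macrophages and a median of -3.93. Fcgrt, the neonatal Fc receptor that recycles IgG, was at 950.0 and 503 against 12.9 and 18. Fcgr3, an activating receptor, was at 639 and 624 against 28.1 and 35.5. Fcer1g, its signalling chain, was at 611 and 472 against 27.7 and 57.6. Fcgr2b, the inhibitory IgG receptor of both lineages, was at 82.1 and 102 in plasma cells and 80.5 and 85.5 in macrophages. Phagocyte oxidase genes had 2 of 7 higher in macrophages, where 15.5% of all genes were, and a median of -1.55. Ncf1, a cytosolic subunit, was among them at 868 and 1537 against 73 and 50.3. Cyba, the membrane subunit p22phox, was at 622 and 566 against 702 and 608.

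Neutrophil transcripts were abundant in the naive macrophage libraries. All 15 neutrophil genes were at least 4-fold higher there, with a median of -3.72, with 0 of them at 0 counts in any library, and they summed to 56864 and 89276 CPM in macrophages and to 4600 and 5428 CPM in plasma cells. Ngp and Ltf, granule proteins of neutrophils, were at 17240.0 and 23458 and at 17279.9 and 27396, above Csf1r or C1qb in CPM per kilobase as well. Elane (360.1 and 1216) and Mpo (2306 and 7552), granule enzymes of neutrophil precursors, were higher in naive replicate 2 than in replicate 1, the opposite order of the macrophage markers. Among 12 erythroid genes 9 were higher in macrophages, and the list summed to 564 and 408 CPM there and to 38.0 and 67.2 CPM in plasma cells. Eosinophil genes had 7 of 10 higher, Ccr3, a chemokine receptor, at 1095 and 459 against 10.7 and 13.8. Epx, the eosinophil peroxidase, was at 229 and 732 against 6.66 and 7.71. T and NK cell genes had 4 of 12 higher, megakaryocyte genes 2 of 4, and stromal genes 2 of 7, where 15.5% of all genes were. These 3 lists summed to 275 and 231, 83.8 and 90.2, and 78.0 and 97.3 CPM in macrophages, and the stromal median, -0.46, was near that of all genes. The part of other cells in the 1883 genes higher in the macrophage libraries was not tested.

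The plasma cell libraries also held such signals, at a lower level. S100a8, S100a9, Ngp, Ltf, Camp, Elane, Mpo, Lcn2 and Ly6g, 9 neutrophil markers, were in them at 3.26% to 15.1% of the macrophage library mean. That range is above the band of Adgre1, Cd5l, Csf1r, C1qa, C1qb, C1qc and Mertk. Among macrophage receptors, Sirpa, Cd36 and Itgam were also above that band, so the contrast depends on the genes chosen. Of the other macrophage markers, Cd68 at 6.42% to 11.2% lay inside the neutrophil range and Spi1 at 16.5% to 18.8% lay above it. Of 5 plasmacytoid dendritic cell genes 3 were higher in plasma cells. These were Tcf4, a factor that B lineage cells share (434 and 485 against 72.9 and 61.6), Ccr9, a gut homing receptor (26.2 and 39.9 against 2.16 and 1.51), and Pacsin1 (3.42 and 8.87 against 0.173 and 0.596), while the defining Siglech was at 2.82 and 1.15 against 7.9 and 5.58. Ly6c2, used as a monocyte marker, was at 2521 and 2439.5 in plasma cells against 190.5 and 361, while the monocyte receptor Ccr2 was at 14.2 and 12.9 against 80.6 and 111. Ly6c2 and Ly6a have near-identical neighbours, so their counts are uncertain.

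Compared per kilobase of exon, the most abundant genes higher in plasma cells were Jchain at 89089 CPM per kb, B2m at 11577, Slpi at 4776, Xbp1 at 4080, Mzb1 at 3205 and Txndc5 at 2087. B2m, the light chain of MHC class I, sat at the limit with a smallest ratio of 4.01. Ly6a, a surface antigen known as Sca-1, followed at 2480.0 and 2411 against 11.6 and 11.3 CPM. The annotated microRNA gene Mir6236 was also among the 12 highest, with 343 and 107 against 23.4 and 8.81 CPM, as were Pdia4, Creld2, Hsp90b1 and Herpud1. In naive macrophages 8 of the 12 highest, Ngp, S100a9, S100a8, Ltf, Camp, Chil3, Retnlg and Anxa1, are known from neutrophils and their precursors. Lyz2, Ctsd, Apoe and C1qb were the others.

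Ranked by smallest ratio, Ccr10 followed Jchain. Ccr10, a chemokine receptor of IgA plasma cells, was at 259 and 515 against 0.885 and 0.912, a ratio of 283. Prlr, the prolactin receptor, was at 93 and 75 against 0.108 and 0.316. Oosp1, a gene named for oocyte secretion, was at 123 and 97.3 against 0.324 and 0.596. None of the 3 reached 1 CPM in a macrophage library. On the macrophage side Nnt led at a ratio of 176, far above the next, Tmcc2 at 51.2 (341 and 362 against 3.31 and 6.65). Erbb2, a growth factor receptor, was at 68.7 and 32.2 against 0.639 and 0.532. Gpr34 (117 and 64.6 against 1.43 and 1.51) and Adgre4 (672 and 387 against 9.36 and 9.75) are receptors of macrophages. Oas2, an interferon-induced enzyme, was at 67.8 and 70.1 against 1.05 and 1.68. Scamp5, a vesicle membrane protein, was at 131 and 54 against 0.903 and 1.42. Gpd1, a glycerol phosphate dehydrogenase, was at 273 and 138 against 3.72 and 3.46. Among tested genes, 47 were at 0 counts in both plasma cell libraries and 24 at 0 counts in both macrophage libraries. The tables were counted separately, and the part of annotation in such zeros was not tested.

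Since the series text gives interaction between myeloma cells and macrophages as the reason for the plasma cell sort, 25 ligand and 32 receptor genes were read in each library. Of these 57, 4 were at least 4-fold higher in plasma cells and 23 in macrophages, where 4.65% and 15.5% of all genes tested were. The plasma cell count is near its share of all genes. Among the 57, Il6, Ifng and Pdcd1 did not pass the filter. Il6, a growth factor of plasma cells named in the series title, was at 0.842 and 1.68 in macrophages and 0.113 and 0.0887 in plasma cells, too low to pass the filter. Its receptor Il6ra was at 47.3 and 18.3 in plasma cells and 97.8 and 81.6 in macrophages, and the signalling chain Il6st was at 72.2 and 25.3 in plasma cells and 48 and 38.9 in macrophages. Tnf, the other named cytokine, was at 15.8 and 17.4 in macrophages and 5.53 and 6.21 in plasma cells, under 4-fold. Its receptors were on the macrophage side, Tnfrsf1a at 288 and 307 against 30.3 and 18 and Tnfrsf1b at 408 and 273 against 43.2 and 27.2.

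The 4 genes on the plasma cell side were all receptors. Tnfrsf17 is given above, Tnfrsf13b, which encodes TACI, was at 1298 and 783 against 44.3 and 64.2, and Tnfrsf13c and Cd28 were the other two. Cd28, a costimulatory receptor that sustains plasma cells, was at 176 and 486 against 2.94 and 2.49. The ligands of these receptors were higher in macrophages. Tnfsf13b, which encodes BAFF, was at 47.9 and 82.9 against 8.05 and 3.9. Tnfsf13, which encodes APRIL, was at 1.88 and 1.3 against 0.0752 and 0.0887. Its plasma cell values rest on 2 and 1 counts, and it overlaps 2 other gene models, so its level is uncertain. Cd86 was at 352 and 202 against 8.65 and 10.5, and Cd80 was at 14.5 and 8.88 against 0.489 and 0.532. The BAFF and CD28 pairs thus had their receptor higher in one cell type and their ligand higher in the other.

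Neutrophils also express BAFF, and Tnfsf13b was higher in naive replicate 2, as the neutrophil genes were; the source of its transcripts was not tested. Other pairs had ligand and receptor on the same side. Gas6 (88.7 and 47.4 against 1.24 and 1.95) and its receptors Mertk and Axl (5839.6 and 2717 against 85 and 81) were all higher in macrophages, and so were Csf1 (24.5 and 37 against 1.99 and 0.709) and Csf1r. Vcam1 was higher in macrophages, and its receptor chain Itga4 was at 74.9 and 78.3 in plasma cells against 43.7 and 43.1, within 4-fold. Cxcr4, which holds plasma cells in the marrow, was at 36.5 and 22.3 against 58.8 and 70.7, and its ligand Cxcl12 was at 2.44 and 2.13 in plasma cells and 3.71 and 2.98 in macrophages. Sirpa, the phagocyte receptor for CD47, was at 2967 and 1613 against 215 and 114, while Cd47 was at 482 and 701 in plasma cells and 761 and 820.1 in macrophages. Igf1r, the receptor for Igf1, was at 20.1 and 17.8 in plasma cells and 32.2 and 44.9 in macrophages. Il10ra, a chain of the interleukin 10 receptor, was at 315 and 163 in macrophages against 11.7 and 12.7, and Il10 was at 8.09 and 2.57 in plasma cells and 6.84 and 2.6 in macrophages.

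**Figure D4:**
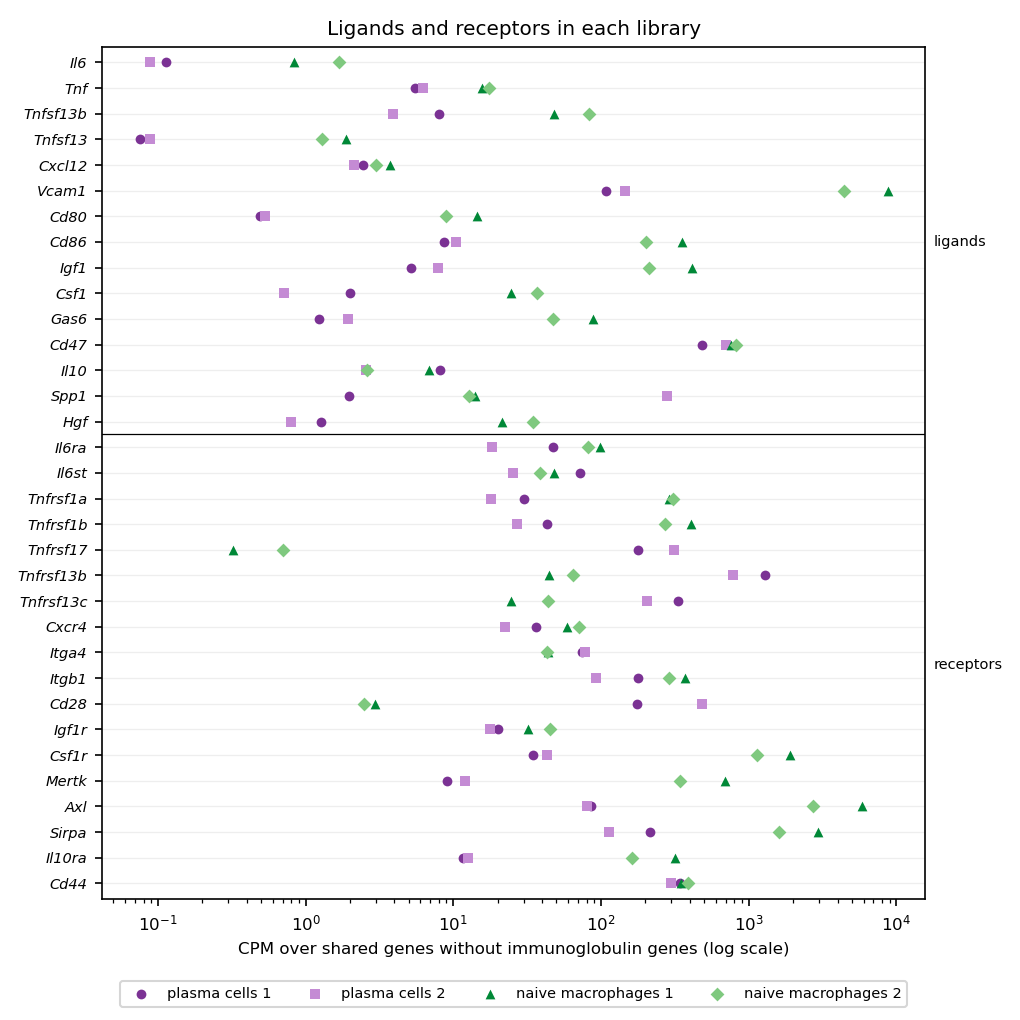
CPM (log scale) of 15 ligand and 18 receptor genes, each point 1 library. Tnfrsf17, Tnfrsf13b, Tnfrsf13c and Cd28 were higher in both plasma cell libraries, and Tnfsf13b, Tnfsf13, Cd80 and Cd86 in both naive macrophage libraries.

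The 2 plasma cell libraries were then read against each other, 1 library a side and with no test. Of 6500 genes with at least 20 CPM in either, 143 (2.2%) were at least 4-fold higher in replicate 1 and 63 (0.969%) in replicate 2. Replicate 1 thus had 69.4% of these calls on the CPM scale and 48.2% with RLE size factors, 105 against 113 genes, so the split depends on the scaling. Across all genes tested the log2 levels of the plasma cell libraries had a Pearson r of 0.932, the naive libraries one of 0.977, and cross pairs 0.69 to 0.713. These are correlations across genes, which are not replicates.

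Of the 22 cell cycle genes, 21 had at least 20 CPM in either plasma cell library, and of these 13 were at least 4-fold higher in replicate 2, where 0.969% of all genes were, and 0 in replicate 1. Ccne1 was the one gene of the list higher in replicate 1, at 34.4 and 29.3, and Mcm2 (73.2 and 75.6) and Tk1 (21.8 and 25.6) were nearly equal. Ube2c, which drives mitotic exit, was at 13.4 and 156. Birc5, a chromosome passenger protein, was at 6.99 and 77.3. Pclaf, a PCNA-binding protein, was at 7.56 and 95.3. Spc24, a kinetochore subunit, was at 4.93 and 38.7. All 4 were among the 8 largest ratios in this direction. The cell cycle list summed to 460 and 1612 CPM in plasma cells and to 1832 and 2602 CPM in naive macrophages. None passed 4-fold between the cell types, and Mki67 was at 31.1 and 83.1 against 87 and 122. Spp1, which encodes osteopontin, was at 1.96 and 282. Mmp13, a collagenase, was at 0.113 and 20.9. Sparc, a bone matrix protein, was at 0.376 and 29.3. The bone collagen Col1a1 was at 0.0376 and 0.177 and Col1a2 at 0.301 and 1.6. The osteoblast gene Bglap was at 0 counts in both, which allows up to 0.113 and 0.266 CPM. The 12 stromal and endothelial genes, Sparc among them, summed to 49.6 and 59.7 CPM. The part of stromal or bone cells in these values was not tested. Tigit, an inhibitory receptor, was at 14 and 109, and Cd28, given above, was also higher in replicate 2, within 4-fold.

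On the other side, Nox1, an NADPH oxidase, was at 94.7 and 1.68. Spon1, a matrix protein, was at 486 and 25. Il9r, the interleukin 9 receptor, was at 29.7 and 1.06. Mapk12, a p38 kinase (23.1 and 0.355), Fam135a (27.3 and 0.887), H2-M10.1, a nonclassical MHC gene (48 and 1.95), Ank, a pyrophosphate transporter (33.8 and 1.6), and Spns2, a sphingosine phosphate transporter (26 and 1.42), completed the 8 largest ratios. Prg2, the eosinophil major basic protein, was at 2298 and 299.6. Il5ra, the interleukin 5 receptor, was at 77.5 and 23.7, while the eosinophil peroxidase gene Epx was at 6.66 and 7.71. Prg2 and Il5ra were chosen after their values were seen. Sdc1, given above, was also higher in replicate 1, within 4-fold.

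**Figure D5:**
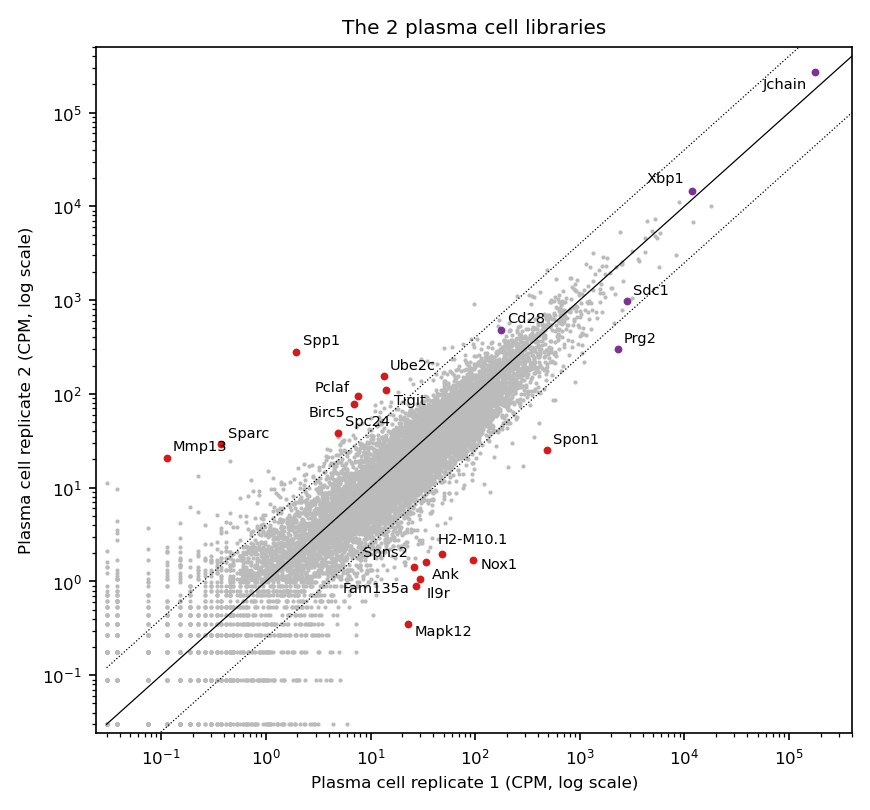
CPM of plasma cell replicate 2 against replicate 1 on log scales for the genes tested; the solid line marks equal levels, the dotted lines 4-fold, red points the 8 genes per direction with the largest ratio, and values under 0.03 CPM are drawn at 0.03. Spp1 and Ube2c lay above the band and Spon1 and Nox1 below it.

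The dropped immunoglobulin genes also differed between the libraries. Of heavy chain constant region counts, IgA took 40.0% and 61.7% in the plasma cell libraries, IgM 30.7% and 13.3%, IgG2b 13.4% and 12.6%, IgG2c 7.99% and 10.8%, and IgG1 7.22% and 1.17%. IgA was the first isotype in both, and its share was the higher in replicate 2, in which Jchain was the higher too. Kappa chains took 95.6% and 94.96% of light chain counts. The most used variable segment held 7.43% and 4.85% of variable segment counts, Igkv14-126 in replicate 1 and Igkv19-93 in replicate 2. The 10 most used segments held 32.3% and 33.3%. Whether these cells are myeloma or polyclonal is not given in the labels and was not tested.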

How the data were processed

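The libraries were made with SMART-Seq v4, per the labels' protocols, a kit that does not mark strand. Read counts per gene were deposited by the authors in separate tables for plasma cells, by symbol, and macrophages, by Ensembl ID. STAR, featureCounts, DESeq2 1.26, mm10 and GRCm38 are named in the submitters' processing notes. The sources used here do not give how reads mapping to several places were counted. GENCODE M21 matched 47224 of 47643 IDs, and 46844 symbols were shared, of which 393 immunoglobulin genes were dropped; 24 gene names held as dates in the plasma table were not matched. Counts of IDs sharing a symbol were summed. CPM, the 4-fold limit and the filter are given in the text; log2 values carry 0.5 CPM. TMM and RLE factors came from edgeR 4.0.16, other steps from Python 3.11.15 with pandas 2.3.3. No statistical test was run between groups. The 4-fold rule was run on simulated counts with planted changes far above the limit and the same profile for both cell types. That run cannot speak to changes near the limit or to differences between the count tables. The labels do not say that replicates are separate animals. Members, lists and comparisons were chosen with earlier results of these data known. Genes were named by rule as the marker, cytokine and sort genes, the 12 of highest mean CPM per kb and the 8 of largest smallest ratio in each direction (the latter with a mean of at least 50 CPM), up to 4 members of each list by level, ligands and receptors, and the 8 largest ratios each way between the plasma cell libraries (at least 20 CPM). Other list members were added for their role after their values were seen. Of 246 genes examined singly, 114 overlap another gene model, and unstranded counts cannot separate such genes. RefSeq promoter windows are of GRCm38.p6, positions of GRCm38. Some genes of the lists are not reported singly here.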

Additional observations from a re-analysis of the deposited data

Results flagged for a closer look

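The immunoglobulin genes left out of the comparison took 67.4% of the counts of plasma cell replicate 1 and 70.5% of replicate 2, against 0.469% and 0.637% in the naive macrophage libraries.

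Tent5c, which encodes a poly(A) polymerase of plasma cells, was outside the join by symbol, since the plasma cell table holds it under its older symbol Fam46c. Matched through the RefSeq synonym, it was at 929 and 803.9 CPM in plasma cells and 40.0 and 32.1 CPM in naive macrophages, a smallest ratio of 20.1.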

How the results depend on the processing

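No paired analysis was possible because the result comes from no test, and the shared replicate numbers do not tie plasma cell libraries to macrophage libraries. The 7 alternatives were RLE, TMM, immunoglobulin genes kept, and each of the 4 libraries left out. Under all of them 50 of 94 named genes not called and 28 of 36 lists kept the sign of their difference. So did all 152 named genes called, which the rule largely fixes in advance. It needs every library pair to be at least 4-fold apart, and scaling moved the median by less than that. The counts of 567 genes higher in plasma cells and 1883 higher in macrophages became 323 and 1157 with at least 10 CPM in 2 libraries, 1173 and 3269 at a 2-fold limit, and 330 and 1003 at an 8-fold limit. With immunoglobulin genes kept in the totals, which lowers the median difference of all genes by 1.46, they were 389 and 4988, and 7.24% of the calls were higher in plasma cells. With TMM factors they were 737 and 1461 (33.5%). Leaving out each library gave 458 to 667 and 1321 to 2777. The 206 genes 4-fold apart between the plasma cell libraries became 49 at 100 CPM or more and 46 at an 8-fold limit. TMM, which was added for this pair after the data were seen, gave 122 higher in replicate 1 and 101 in replicate 2.

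The median log2 difference of the B cell list became 0.15 with RLE and 0.10 with TMM, and ranged from -0.68 to 0.15 with each library left out. That of the housekeeping list became 0.11 and 0.059, and ranged from -0.45 to 0.012. With immunoglobulin genes kept, medians became -0.20 for N-glycosylation, -0.38 for ER to Golgi transport, -0.62 for the unfolded protein response, -1.28 for survival, -0.36 for ribosomal proteins and -0.94 for oxidative phosphorylation. Matching synonyms, also added after the data were seen, joined 195 more genes and gave 569 and 1894. Depth limits genes under about 0.266 CPM.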

Other observations

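In the naive macrophage libraries the most used variable segment was Igkv5-48, with 13.7% and 11.7% of variable segment counts, and IgM was the first isotype, with 35.8% and 38.8% of heavy chain constant region counts. In the plasma cell libraries IgA was first. Kappa chains took 93.7% and 93.8% of light chain counts in the macrophage libraries.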
